A study of Homo sapiens with 4 samples.

Results

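The immediate early factors of the AP-1 and EGR families were analyzed in U937 cells with and without AML1/ETO, the fusion protein of the 8;21 translocation of acute myeloid leukemia. All probe sets annotated to JUN, JUNB, JUND, FOS, FOSB, FOSL1, FOSL2, EGR1, EGR2 or EGR3 were taken, whatever their signals. This gave 21 probe sets of 9 genes, out of 54613 probe sets that are not controls and 19775 genes with a name. The annotation used pairs no probe set with EGR2, which was not analysed here. U937 is an established human line of leukemic monocytic cells. U937-AE is 1 clone that was stably transfected with HA-tagged AML1/ETO under the zinc-inducible mouse metallothionein (Mt) promoter, while U937-Mt is an uncloned bulk population that received the vector pSGMtNeo alone. Both received 100 µM ZnSO4 for 8 hours, so zinc is shared by the compared cells and no zinc-free cells were analysed. RNA of 3 extractions was mixed into 1 pool per cell line, and the pool was measured on 2 array copies (Affymetrix HG-U133 Plus 2.0).

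JUN and FOS proteins pair through leucine zippers into the AP-1 transcription factor, and EGR proteins bind GC-rich DNA through zinc fingers. Growth factors, cytokines and stress induce most of these genes within minutes through mitogen-activated protein (MAP) kinases and the serum response factor SRF, and most of the transcripts are short-lived. In myeloid cells JUN and EGR1 are known for their part in monocytic and macrophage differentiation.

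Each value below is the signal intensity, in arbitrary units, that the authors computed for a probe set (a group of probes for 1 transcript). Signals of different probe sets are not on a common scale, so levels were not ranked between probe sets. Signals under the median of their array, which was 119.5 and 129.7 for U937-AE and 146.8 and 153.6 for U937-Mt, were raised to that median, called the floor here. Differences are log2 of U937-AE minus log2 of U937-Mt, averaged over the 4 possible pairs of 1 array from each cell line. A probe set was called higher or lower where all 4 comparisons exceeded 1.5-fold in the same direction. The 2 arrays of a cell line are copies of 1 pool, so ranges over the 4 comparisons cover hybridization error only and no call here rests on a p-value. The p-values of the alternatives cover the spread between array copies. A consequence of clone selection and a consequence of AML1/ETO cannot be told apart, nor can fewer cells with a transcript and less transcript per cell. Because the floors are higher in U937-Mt, a probe set under all of them is given a difference of -0.27 whatever its signals.

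RUNX1T1, which encodes ETO, was read as a check of the labels. Its probe set 216831_s_at gave 1362 and 1299 in U937-AE cells and 8.6 and 7.6 in U937-Mt cells, at least 8.86-fold higher in U937-AE. Its other 6 probe sets were not called, and whether they lie in the cloned part was not analysed here. Signals of the 2 array copies correlated across probe sets with r = 0.935 in U937-AE and 0.919 in U937-Mt, against 0.910 to 0.916 between the cell lines (log2 scale, probe sets are not independent replicates). The ratio of 3′ to 5′ GAPDH signal was 1.05 to 1.12 on the 4 arrays, while the 3 probe sets of 18S ribosomal RNA were 6.60-fold brighter in U937-AE, and the part of the latter in the results was not tested. Of 12 myeloid markers chosen, the annotation gave 9 a probe set of their own, and CD33, CD68 and LILRB4 were not read. Of these 9, 1 was called higher and 4 lower in U937-AE, and 4 were not called. PTPRC was 1.56-fold higher, while MPO was 8.92-fold, SPI1 2.77-fold, ITGB2 2.45-fold and LYZ 2.05-fold lower. None of the markers matched in the same way for T cells (4 genes), B cells (3), erythroid cells (2) or epithelial cells and fibroblasts (6) was called. The part of these marker levels in the results below was not tested.

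In U937-AE cells 1 of the 3 probe sets of EGR1 was called higher than in U937-Mt cells. Called lower were 2 of the 4 probe sets of JUN and 1 of the 5 probe sets of FOSL2. JUNB, JUND, FOS, FOSB, FOSL1 and EGR3 had no called probe set. In all, 1 of the 21 probe sets was called higher (4.76%) and 3 were called lower (14.3%). Over all probe sets 1.29% were called higher and 2.74% lower. Probe sets under the floor on all arrays cannot be called, so the counts were repeated for the 14 probe sets whose mean log2 signal reached the mean floor, of which 1 was called higher (7.14%) and 2 lower (14.3%). The shares over the 26173 probe sets of that brightness were 2.60% and 5.23%. A weaker criterion, no overlap between the signals of the cell lines, put both U937-AE arrays under both U937-Mt arrays for 13 of the 21 probe sets (61.9%, against 32.3% of all probe sets) and for 9 of the 14 bright ones (64.3%, against 33.8%). Both U937-AE arrays were above both U937-Mt arrays for 4 of the 21 (19.0%, against 17.6%) and for 4 of the 14 (28.6%, against 26.1%). The 13 probe sets were 4 of JUN, 5 of FOSL2, 3 of JUND and 1 of EGR3, and those of 1 gene are not independent. This criterion was applied to the deposited signals only, in which the U937-Mt arrays have the higher medians. Counted by gene, with its brightest probe set, 6 of the 9 genes reached the mean floor, of which 1 was higher (EGR1) and 1 lower (JUN). Of the 12052 genes that did so, 2.71% were higher and 6.17% lower.

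**Figure D1:**
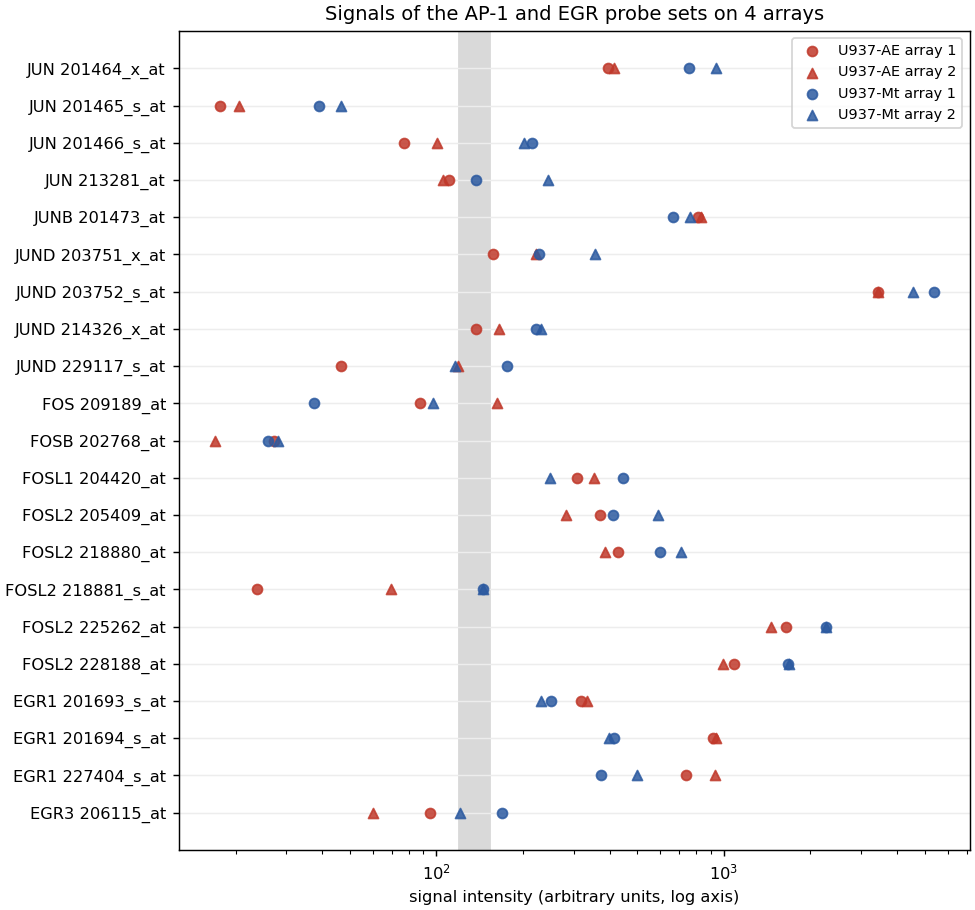
Signal intensity (arbitrary units, log axis) of each of the 21 AP-1 and EGR probe sets on the 2 U937-AE arrays (red) and the 2 U937-Mt arrays (blue), with circles for the first and triangles for the second array and a grey band from the lowest to the highest floor (119.5 to 153.6). The red symbols lie to the right of the blue ones for the 3 probe sets of EGR1 and for JUNB, and to the left for every probe set of JUN and FOSL2.

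The promoters of the 3 genes with a called probe set are shown because these genes differed in direction. The sequences are the 250 bases before the annotated transcription start, from RefSeq on GRCh38.p14, written 5′ to 3′ along the strand of the gene, with capitals for the CArG boxes bound by SRF (CC, then 6 bases that are A or T, then GG) and for the EGR site GCGNGGGCG.
JUN, chr1:58784048-58784297, minus strand: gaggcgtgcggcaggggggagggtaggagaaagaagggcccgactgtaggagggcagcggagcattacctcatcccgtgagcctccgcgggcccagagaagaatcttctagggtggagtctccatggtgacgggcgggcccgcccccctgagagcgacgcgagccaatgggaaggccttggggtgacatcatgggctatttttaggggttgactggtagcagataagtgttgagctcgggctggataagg
FOSL2, chr2:28392608-28392857, plus strand: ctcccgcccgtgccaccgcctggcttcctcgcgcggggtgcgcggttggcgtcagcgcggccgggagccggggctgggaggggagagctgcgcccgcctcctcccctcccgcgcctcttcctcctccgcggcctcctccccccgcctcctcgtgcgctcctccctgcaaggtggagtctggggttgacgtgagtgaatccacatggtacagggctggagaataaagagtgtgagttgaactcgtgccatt
EGR1, chr5:138465229-138465478, plus strand: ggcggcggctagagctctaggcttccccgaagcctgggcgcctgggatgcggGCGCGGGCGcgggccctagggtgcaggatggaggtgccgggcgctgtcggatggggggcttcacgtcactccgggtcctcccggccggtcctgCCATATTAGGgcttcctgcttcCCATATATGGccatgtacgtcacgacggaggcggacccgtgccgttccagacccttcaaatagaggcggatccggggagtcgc
Windows of 300 bases, which also hold the 50 bases after the start, were searched on both strands, and 8 of the 10 genes had such a window. EGR1 held 2 CArG boxes, 105 and 83 bases before the start, and 1 EGR site, 198 bases before it. A CArG box was found in 1.29% of the 35116 windows of all genes, and an EGR site, the sequence bound by EGR1 itself, in 9.43%. The other window with a CArG box belonged to 1 of the 3 starts of EGR2, and another start of EGR2 held an EGR site. FOSL2 held 1 AP-1 site TGANTCA, 5 bases after the start (7.71% of all windows), and JUND held 1 cAMP response element TGACGTCA, 200 bases before it (1.85%). For the AML1 sites TGTGGT (13.1% of all windows) and TGCGGT (7.29%), bound by the AML1 part of the fusion protein, the single match was TGCGGT in FOS, 2 bases after the start. The windows of JUN, JUNB and FOSB matched none of these letters, and a match is not a measured binding site. Only these letters within the 300 bases were searched, so sites with other letters or further from the start were missed.

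JUN, the major partner in AP-1, was represented by 4 probe sets, and in each of them both U937-AE arrays were below both U937-Mt arrays. Probe set 201464_x_at gave 395.8 and 413.5 in U937-AE cells and 755.2 and 939.2 in U937-Mt cells. On this probe set JUN was lower by 2.08-fold in U937-AE (range 1.83 to 2.37, log2 difference -1.06), while the copies of a pool differed by 1.05-fold and 1.24-fold. Probe set 201466_s_at gave 77.0 and 100.8 in U937-AE cells and 214.3 and 201.4 in U937-Mt cells. Both U937-AE signals were under the floor, so this probe set was at least 1.67-fold lower (1.55 to 1.79). Probe set 213281_at gave 110.8 and 105.1 against 136.8 and 244.4, with 1 U937-Mt array also under the floor, and it was not called (log2 difference -0.61). Probe set 201465_s_at was under the floor on every array, at 17.6 and 20.6 in U937-AE cells and 39.0 and 46.6 in U937-Mt cells. The deposited signals of the 4 JUN probe sets had log2 differences of -1.06 to -1.24 without a floor, except 213281_at with -0.76.

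JUNB, which replaces JUN in AP-1 dimers with weaker activity at many promoters, gave 810.8 and 829.9 in U937-AE cells and 665.5 and 759.4 in U937-Mt cells on its probe set 201473_at. The groups did not overlap, but the difference was 1.15-fold (1.07 to 1.25) and was not called. JUND, the JUN gene that is expressed most steadily in resting cells, had 4 probe sets and no call. The signals of 203752_s_at were 3447.0 and 3438.6 in U937-AE cells and 5362.5 and 4548.8 in U937-Mt cells (log2 difference -0.52, range of folds 1.32 to 1.56). Probe set 214326_x_at gave 137.7 and 164.7 against 222.1 and 230.5, and 203751_x_at gave 157.7 and 221.8 against 226.7 and 354.6. Their log2 differences were -0.59 and -0.60, and in both at least 1 of the comparisons stayed under 1.5-fold. In the remaining one, 229117_s_at, the groups overlapped (46.4 and 118.9 against 176.3 and 116.1). Probe sets with these suffixes can match transcripts of related genes, and _x_at sets also unrelated ones, so their assignment to JUN and JUND is less certain.

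Of the FOS genes, which have no stable homodimers and need a JUN partner, FOS and FOSB were near or under the floor. FOS gave 87.6 and 161.8 in U937-AE cells and 37.4 and 97.4 in U937-Mt cells on probe set 209189_at, with 3 of the 4 signals under their floor. The groups overlapped, and the copies of a pool differed by 1.85-fold and 2.60-fold, so no difference was detectable for FOS. FOSB gave 27.2 and 16.9 against 26.0 and 28.0 on 202768_at, under the floor on every array. FOSL1, which encodes FRA-1, was above the floor on all arrays with 308.4 and 353.8 against 445.6 and 249.1 on 204420_at. These signals overlapped as well, and the U937-Mt copies lay on either side of the U937-AE copies (log2 difference -0.01, range -0.53 to 0.51).

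FOSL2, which encodes FRA-2, had 5 probe sets, and in all of them both U937-AE arrays were below both U937-Mt arrays. Probe set 228188_at gave 1084.4 and 993.9 in U937-AE cells and 1676.7 and 1686.1 in U937-Mt cells. It was called lower at 1.62-fold (1.55 to 1.70, log2 difference -0.70). The brightest, 225262_at, gave 1638.2 and 1454.1 against 2272.5 and 2260.3, a 1.47-fold difference (1.38 to 1.56) that was not called. Probe set 218880_at gave 426.6 and 384.2 against 600.1 and 708.3 (1.61-fold, 1.41 to 1.84). Probe set 205409_at gave 370.3 and 283.3 against 412.2 and 590.5 (1.52-fold, 1.11 to 2.08). These 4 probe sets thus had close mean differences, from -0.55 to -0.70 on the log2 scale, and in 1 of them all 4 comparisons exceeded 1.5-fold. The fifth, 218881_s_at, lay under the floor on every array, at 23.7 and 69.7 in U937-AE cells and 145.6 and 145.5 in U937-Mt cells.

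EGR1, a zinc finger factor induced by serum and by monocytic differentiation agents, had 3 probe sets, and in all of them both U937-AE arrays were above both U937-Mt arrays. Probe set 201694_s_at gave 914.8 and 935.1 in U937-AE cells and 414.9 and 398.1 in U937-Mt cells. On this probe set EGR1 was 2.28-fold higher in U937-AE (2.21 to 2.35, log2 difference 1.19), with copies of a pool 1.02-fold and 1.04-fold apart. Probe set 227404_s_at gave 739.9 and 931.8 against 373.1 and 497.8. Its mean difference was 1.93-fold, and 1 comparison at 1.49-fold kept it from being called. Probe set 201693_s_at gave 317.0 and 334.2 against 250.7 and 231.0, which is 1.35-fold (1.26 to 1.45) and not called. The 3 probe sets therefore had the same direction and differed in size, from 0.44 to 1.19 on the log2 scale, and all are of the _s_at kind. EGR3, which is induced by antigen receptor signals in lymphocytes, gave 94.7 and 60.0 in U937-AE cells and 168.8 and 120.9 in U937-Mt cells on 206115_at, and 168.8 was the single signal above its floor.

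**Figure D2:**
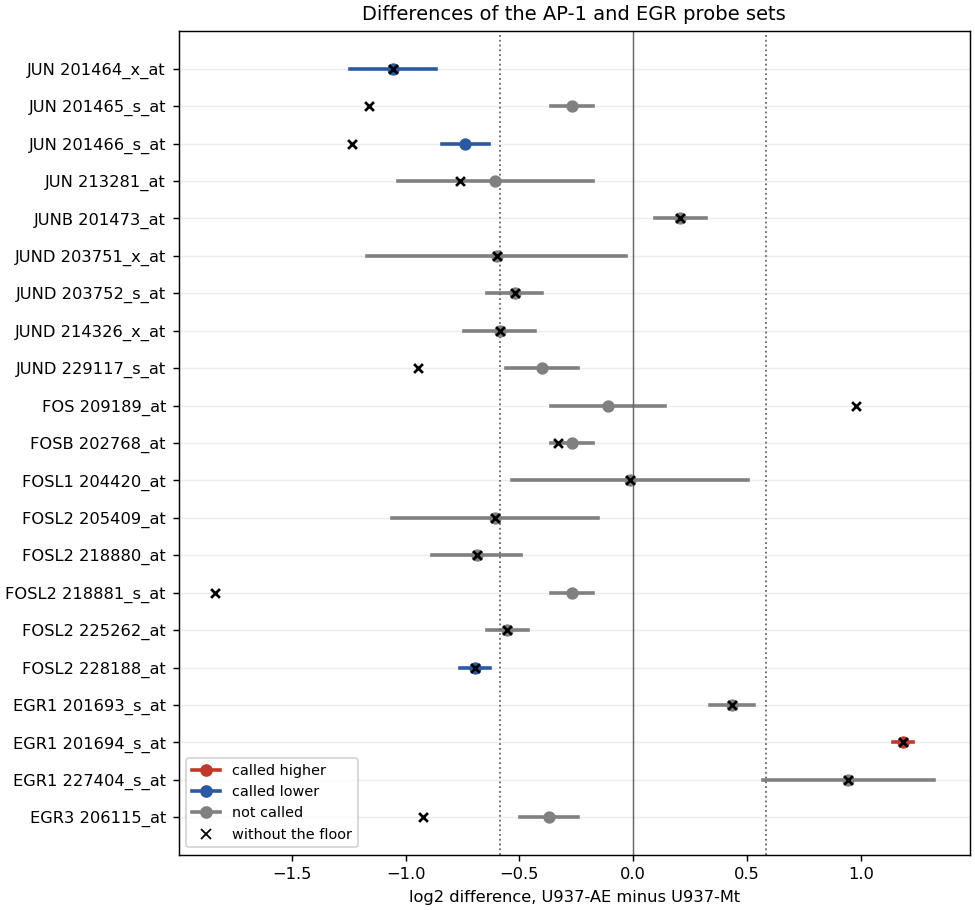
Log2 difference, U937-AE minus U937-Mt, of the 21 probe sets (points) with the range over the 4 comparisons of single arrays (bars), in red where called higher, blue where called lower and grey where not called. Dotted lines mark 1.5-fold and crosses give the difference without the floor, which for JUN 201465_s_at, FOSL2 218881_s_at and FOS 209189_at lies far from the floored point because most of their signals are under the floor.

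The scaling of the arrays moved every difference, and with it the calls. On the U937-Mt arrays the 18 hybridization spike-in probe sets were 1.27-fold brighter, and setting them equal raised every unfloored log2 difference by 0.34. EGR1 201694_s_at was then at 1.53, and under quantile normalization or equal array medians it was at 1.27 and 1.46, called higher each time. With equal spike-ins all 3 EGR1 probe sets were called higher and no member was called lower. JUN 201464_x_at had a log2 difference of -0.98 after quantile normalization and -0.79 with equal medians, called lower in both, and -0.71 with equal spike-ins, where it was not called. FOSL2 228188_at had -0.72, -0.43 and -0.35, and was called lower after quantile normalization but not under the others. All probe sets of JUND and FOSL2 that were above the floor stayed below 0 under each of these scalings, and JUNB stayed above 0. FOSL1 turned from -0.01 to 0.16, 0.26 and 0.33.

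**Figure D3:**
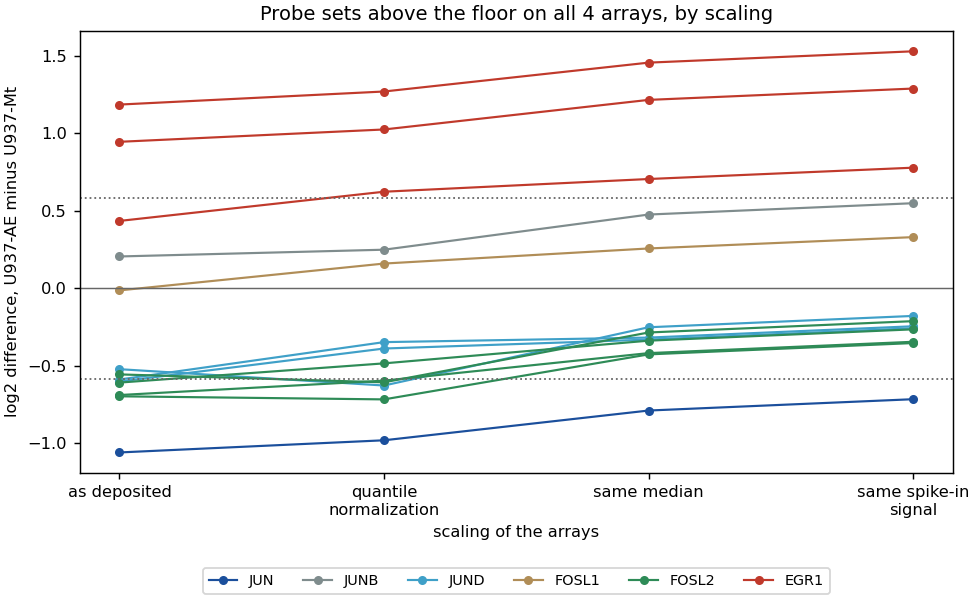
Log2 difference, U937-AE minus U937-Mt, of the 13 AP-1 and EGR probe sets above the floor on all 4 arrays under 4 scalings of the arrays, 1 line per probe set coloured by gene, with 1.5-fold as dotted lines. The 3 lines of EGR1 include the highest and the line of JUN is the lowest under each scaling, and every line is higher with equal spike-ins than with the deposited signals.

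A constant factor on an array cancels when 2 probe sets are compared within it. This comparison was chosen after the values were seen and uses the brightest probe set of each gene. The ratio of EGR1 to JUN was 4.74-fold higher in U937-AE than in U937-Mt (4.12 to 5.45 over the 4 comparisons). The change in the ratio was 3.34-fold (3.06 to 3.65) for EGR1 to FOSL2, 3.27-fold (3.03 to 3.52) for EGR1 to JUND and 1.97-fold (1.81 to 2.15) for EGR1 to JUNB. On these probe sets EGR1 and the other genes differed unequally between the cell lines, and the ratios do not give the change of either gene alone. The EGR1 probe set used, 201694_s_at, has the largest of the 3 EGR1 log2 differences, 1.19 against 0.95 and 0.44. Ratios with the other EGR1 probe sets were not computed.

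Other genes of these pathways were read by their brightest probe set, in lists described by counts and medians. Over all 19775 genes 336 were called higher and 791 lower, with a median of -0.27 (-0.15 without the floor). Over the 12052 genes bright enough to reach the mean floor the median was -0.08. A median of -0.27 is the difference given to a probe set under all floors, so the median without the floor is given beside it. Of 11 bZIP factors of the ATF, CREB, BATF and JDP groups, none was higher and 1 was lower (median -0.27, without the floor -0.22). This was JDP2, a repressor of AP-1, with 1123.9 and 965.2 in U937-AE cells and 2531.0 and 2491.7 in U937-Mt cells, 2.41-fold lower (2.22 to 2.62). Of 6 EGR relatives and NAB corepressors none was called (median 0.14), and 2 were called higher with equal array medians or equal spike-ins. NAB2, a corepressor that EGR1 induces, gave 194.9 and 228.5 in U937-AE cells and 119.1 and 126.8 in U937-Mt cells, with both U937-Mt signals under the floor. Its other probe set, 216017_s_at, overlapped between the cell lines, with 31.9 and 144.2 against 31.6 and 156.5. Of 11 SRF, ternary complex and MEF2 factors 1 was higher, MEF2C, with 8472.8 and 8784.0 against 5295.4 and 5392.5 (1.61-fold, list median 0.07), a call that was lost with quantile normalization. SRF itself gave 626.5 and 454.2 against 574.3 and 562.2.

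Of 13 MAP kinases and their ribosomal S6 kinase substrates 2 were lower and none higher (median -0.09). RPS6KA1, an ERK-activated kinase that acts on SRF and FOS, was 2.88-fold lower in U937-AE, with 1250.7 and 1017.6 against 3236.7 and 3257.9. RPS6KA2 was 2.05-fold lower, with 284.5 and 339.4 against 709.2 and 574.3. The other probe sets of RPS6KA2, 1557970_s_at and 212912_at, were not called. With equal array medians or equal spike-ins 1 gene of the list was lower and 1 higher. None of 7 genes for the turnover and activity of JUN and FOS proteins was called (median 0.04). The kinase genes show transcript levels only, and kinase activity was not measured.

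Of 40 other immediate early genes 3 were higher and 5 lower (median -0.27, without the floor -0.13). Counts of higher genes were 6 with equal array medians, 8 with equal spike-ins and 6 when U937-Mt array 1 was left out. When U937-AE array 2 was left out, 9 genes were lower. The higher ones were NFKBIZ at 2.97-fold, GADD45A at least 2.52-fold and MCL1 at 1.75-fold. Of the other MCL1 probe sets, 214056_at was called higher, and 200796_s_at, 200798_x_at, 214057_at and 227175_at were not called. The lower ones were KLF10 at 3.80-fold, NFKBIA at 2.86-fold, TNFAIP3 at 2.29-fold, ZFP36L2 at 2.10-fold and RGS2 at 1.99-fold. NFKBIA and TNFAIP3 are inhibitors of NF-κB signaling, and NFKBIZ is a nuclear cofactor of the same pathway, so members of 1 pathway appeared in both directions. ATF3 (392.9 and 402.8 against 494.4 and 402.1) and IER2 (4077.7 and 4557.9 against 5228.0 and 5403.9) were not called.

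Of 26 genes known as targets of AP-1 or EGR1 4 were higher, 2 were lower and 20 were not called (median -0.27, without the floor -0.28). CXCL8, the neutrophil chemokine, was 5.96-fold higher in U937-AE, with 2251.8 and 2194.8 against 356.5 and 390.0. HMOX1, which degrades heme, was 4.40-fold higher, with 8807.0 and 8887.6 against 2128.3 and 1902.1. CCND1 was 2.57-fold and the plasminogen activator PLAU 1.96-fold higher. The other probe set of CCND1 and that of PLAU were not called, while the other of CXCL8 was 2.91-fold higher. VEGFA was 2.08-fold and IL1B 1.86-fold lower, and on these probe sets neither was called with equal array medians or equal spike-ins. Of the other VEGFA probe sets, 211527_x_at was 3.06-fold and 212171_x_at 2.79-fold lower, and 210513_s_at was not called. The other probe set of IL1B was 1.92-fold lower. These genes have other regulators as well, and the direction of the list differs from gene to gene.

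**Figure D4:**
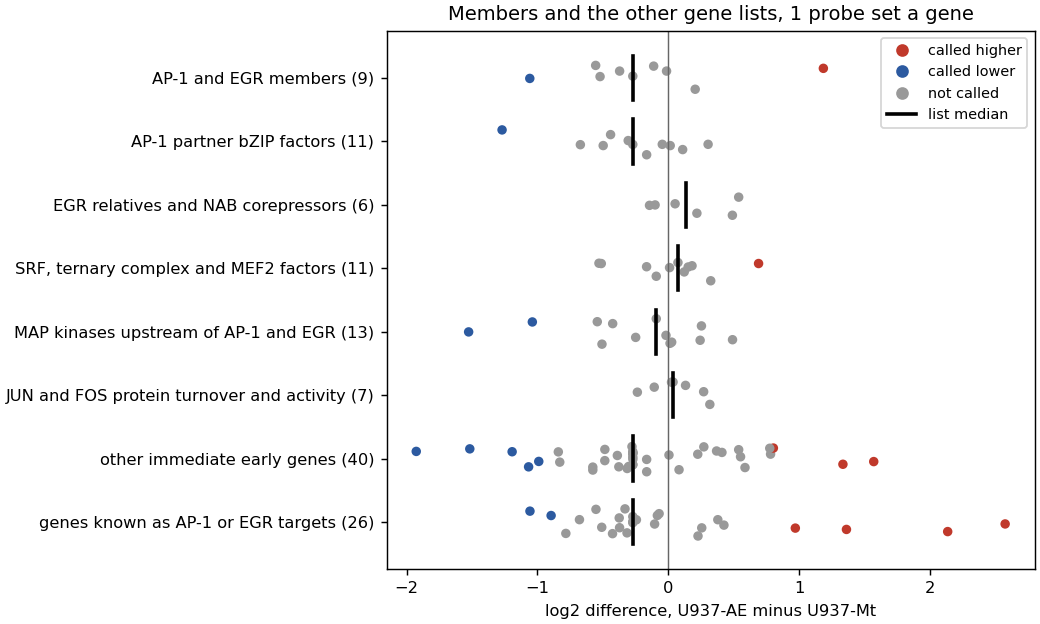
Log2 difference, U937-AE minus U937-Mt, of the 9 AP-1 and EGR genes and of the genes of 7 other lists, each by its brightest probe set (1 point per gene, number of genes in parentheses, vertical scatter without meaning), in red where called higher, blue where called lower and grey where not called, with a black bar at each list median. Medians lie between -0.27 and 0.14, and each list has most of its genes not called.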

How the data were processed

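The authors labeled 1 RNA pool per cell line and hybridized it to 2 array copies. They deposited 1 linear signal intensity per probe set, computed with GCOS (absolute analysis, default parameters) and scaled per array. The GCOS version was not given in the sources used here. The deposited value table holds 54675 probe sets, of which 62 are controls. Its annotation gives 41097 probe sets 1 gene symbol, 1801 several and 11777 none, and no member probe set has several. From the intensities, values under the 50th percentile of an array were raised to it and log2 was taken. The methods compared each sample array with both reference arrays and used a cutoff of 1.5-fold, and both were kept. Asking for that fold in all 4 comparisons of floored signals was chosen here in place of the change calls of GCOS. The steps were tested on simulated data. The genes of interest, the lists, the call rule and the alternatives were chosen with earlier results of these data known. Genes named from the lists are the called ones, up to 6 in each direction, and NAB2, SRF, ATF3 and IER2 were added after their values were seen. The number of arrays, 2 per pool, limits the precision. Labels name TRIzol before RNeasy columns, and the methods name RNeasy. Alternatives were 3 other scalings, 4 other floors, 2 other fold rules, the methods' t-test, limma without and with the array number as a block, no _x_at or _s_at probe sets, and leaving out each array. Promoters are RefSeq sequences. Protein sequences were not used here. Python 3.11.15 (numpy 2.4.6, scipy 1.17.1, pandas 2.3.3, matplotlib 3.10.9) and R 4.3.3 (limma 3.58.1) were used.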

Additional observations from a re-analysis of the deposited data

How the results depend on the processing

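Of the member probe sets, 1 was called higher and 3 lower. The counts were 2 and 2 with quantile normalization, 3 and 1 with equal array medians, 3 and 0 with equal spike-ins, 1 and 5 without a floor, 1 and 0 at 2-fold, and 2 and 8 where only the mean had to exceed 1.5-fold. Over all probe sets, 707 higher and 1496 lower became 2023 and 667 with equal medians, 2850 and 508 with equal spike-ins and 1744 and 4809 without a floor. Floors at the 25th or 75th percentile or 1 common floor left 1 higher and 2 to 4 lower members. The methods' t-test, which also asks for more than 2-fold, called 1 and 1 (EGR1 201694_s_at and JUN 201464_x_at) at an unadjusted p under 0.05, and 0 and 0 after Benjamini-Hochberg. Over all probe sets it called 271 and 669 before and 0 and 0 after. limma called 2 and 5 at an adjusted p under 0.05 and 1.5-fold, and 1193 and 2494 over all probe sets. With the array number as a replicate block limma called 2 and 8 (1457 and 3692 over all), and the numbers only name array copies. Without _x_at and _s_at probe sets 10 remained, with 0 higher and 1 lower (FOSL2 228188_at). Leaving out 1 array gave 1 to 2 higher and 4 to 7 lower, with 7 in the absence of U937-Mt array 1 and 5 in that of U937-AE array 1, and kept the 4 calls. EGR1 201694_s_at was called higher under each alternative that tested it except the adjusted t-test. No call changed direction. Signals near the floor limit what can be read for FOS, FOSB and EGR3.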
